A study of Homo sapiens with 4 samples.

Results

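The effect of switching RBM35A on was examined in total RNA from LS180, a cell line established from a human colon carcinoma. For each gene, the log2 value on the array of cells without the protein (RBM35A-) was subtracted from the value on the array of cells with it (RBM35A+). Each gene was read from 1 probe set carrying exactly 1 gene symbol, chosen for the highest mean over all 4 arrays of the series. Genes entered when that probe set reached a log2 value of 5 on at least 1 of the total RNA arrays. Values under 5 were raised to 5. This rule kept 3320 of the 8225 genes on the array, of which 3123 were also measured by the same rule in polysomal RNA. At the edge of the rule, EXOSC10 was just inside with a higher value of 5.0002 and GNA13 was just outside with 4.9985.

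RBM35A, now named ESRP1, is a splicing regulator found in epithelial cells. It binds RNA in and around alternative exons and favours the splice forms typical of epithelia, as in the transcripts of FGFR2, CD44 and CTNND1. Colon epithelium holds absorptive enterocytes and mucus-secreting goblet cells, and colon carcinoma lines can express genes of both.

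The RBM35A+ cells were a Tet-off derivative of LS180, in which a transgene is silent with doxycycline and active without it, and they had gone without doxycycline for at least 6 days. The RBM35A- cells were kept in doxycycline. They are described as parental, and whether they carried the construct is not given in the sources used here. Both were grown to at most 80% confluency, total RNA was extracted with TRIZOL, and 10 µg was labelled for an Affymetrix HG-U95Av2 array. The series holds 4 arrays, 1 for each RBM35A state in total RNA and in RNA from polysomes, which are transcripts carrying several ribosomes. With 1 array a side there is no replicate check, and no p-value is given for any difference. RBM35A state cannot be told apart from doxycycline, nor from the presence of the construct should the RBM35A- cells have lacked it.

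The array of RBM35A+ total RNA differed from the others in a control for ribosomal RNA. The probe set for the 5′ part of 18S rRNA, the RNA of the small ribosomal subunit, read 11.57 in RBM35A+ total RNA and 2.22 on each of the other 3 arrays. The probe sets for the middle and the 3′ part of the same RNA read at most 3.21 on all 4 arrays. Bacterial spike-in controls, used to gauge hybridization, were higher in RBM35A+ for 6 of 7 measured probe sets, with a median difference of 0.27 and a range from -0.19 to 0.40. In polysomal RNA 5 of the same 7 were higher in RBM35A+, with a median of 0.17. The 5′ probe set of beta-actin read 14.79 in RBM35A- and 14.75 in RBM35A+ total RNA, and 10.29 and 9.42 in polysomal RNA. Its 3′ probe set read 14.25 and 14.20 in total RNA, and 13.95 and 13.93 in polysomal RNA. The 5′ probe set of GAPDH read 14.65 and 14.62 in total RNA, and 12.81 and 12.03 in polysomal RNA. These 5′ signals were thus weaker on the polysomal arrays. The part of these controls in the gene differences, or in values that compare the fractions, was not tested. Among 12 epithelial and colon markers, 11 were measured, at 8.30 to 13.86, while KRT20 was under the floor. HBB, a globin gene, was the 1 blood marker of 20 that was measured (5.89 and 5.92), and none of 19 fibroblast and endothelial markers was. The array carries no probe set annotated to ESRP1, so the switch itself could not be read.

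**Figure D1:**
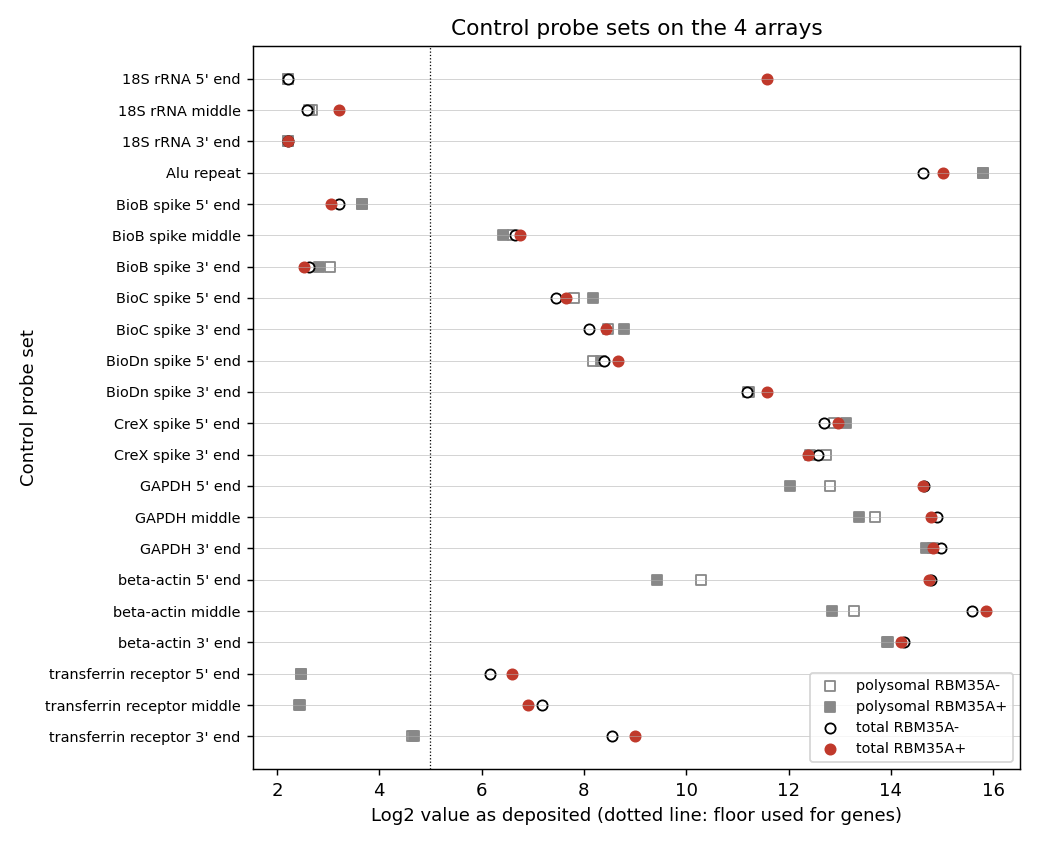
Log2 values as deposited (x axis) of control probe sets (y axis) on the 4 arrays; circles are total RNA, squares polysomal RNA, open symbols RBM35A- and filled symbols RBM35A+. The 5′ probe set of 18S rRNA stands at 11.57 in RBM35A+ total RNA alone, against 2.22 on the other arrays.

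Few genes differed by much. At a threshold of 2-fold, 5 genes were higher in RBM35A+ cells (0.151% of those analysed) and 0 were lower (0%). At 1.5-fold, which is 0.58 on the log2 scale, 51 genes were higher (1.54%) and 22 lower (0.663%). The difference was above 0 for 50.3% of genes and below 0 for 49.3%, with an SD over genes of 0.23. For the 438 genes with at least 2 measured probe sets, the disagreement between probe sets of the same gene gave an SD of 0.21 for a single probe set's difference, close to the spread over genes. This error covers probes and not cultures. The spread was 0.25 for genes with a mean level between 5 and 6 and 0.17 for those between 12 and 17, and 14 of the 51 higher and 9 of the 22 lower genes lay in the lowest of these ranges.

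**Figure D2:**
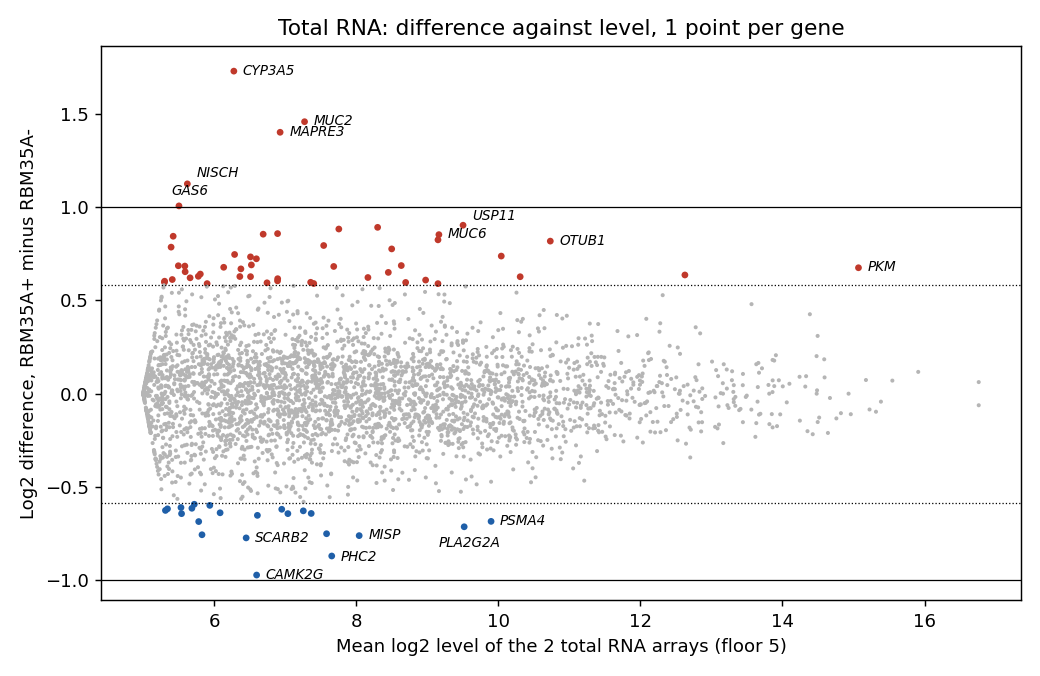
Log2 difference in total RNA, RBM35A+ minus RBM35A- (y axis), against the mean log2 level of both total RNA arrays (x axis), 1 point per gene for 3320 genes. Solid lines mark 2-fold and dotted lines 1.5-fold, and the 51 genes past the upper dotted line (red) and the 22 past the lower (blue) lie mostly at low and middle levels.

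CYP3A5 had the largest difference of all genes analysed. It encodes a cytochrome P450 that oxidises drugs and steroids in liver and gut. Its probe set read 5.41 in RBM35A- and 7.14 in RBM35A+ cells, a difference of 1.73 or 3.32-fold. The same probe set was also higher in polysomal RNA of RBM35A+ cells, at 8.00 and 8.57. It is the only CYP3A5 probe set on the array, and sequence shared with near-identical family members leaves the gene uncertain. CYP3A4, the closest well-known relative, had 3 probe sets, all below 5 (highest values 2.36 and 2.64).

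The promoter of CYP3A5 is shown because genes of this family are known targets of the pregnane X receptor, a nuclear receptor that responds to drugs. The sequence is the RefSeq window of 250 bases before to 50 after the transcription start (GRCh38.p14, chr7:99679947-99680246, minus strand), with a GC content of 50%. Capitals mark matches on either strand to the everted repeat this receptor is known to bind (half-sites TGAACT and AGGTCA with 6 bases of any kind between them), to CCAAT and to TTTAT, the core bound by the intestinal CDX factors.
CYP3A5: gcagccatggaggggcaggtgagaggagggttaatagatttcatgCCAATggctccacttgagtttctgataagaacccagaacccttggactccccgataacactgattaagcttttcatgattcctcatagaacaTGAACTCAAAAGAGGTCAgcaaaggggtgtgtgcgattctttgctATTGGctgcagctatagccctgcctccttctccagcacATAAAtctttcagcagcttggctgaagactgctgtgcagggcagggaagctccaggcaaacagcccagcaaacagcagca
The everted repeat occupies bases 138 to 155 of the window and is present in 3 of 35116 promoters of this length (0.00854%): those of CYP3A5, CYP3A4 and ITGB1BP2. CYP3A4, with the same motif, was below 5 on both arrays, and ITGB1BP2 has no probe set among the genes analysed. CCAAT is found in 34.6% of promoters and TTTAT in 34.9%, so these matches are common. A match describes the letters and is not evidence of binding.

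Other enzymes of drug metabolism did not share the size of the CYP3A5 difference. Of 22 such genes analysed, 12 were above 0 and 10 below, with a median of 0.04 against 0.00 over all genes. TPMT, which methylates thiopurines, read 5.13 and 5.67 (0.54), and CYP4F12, a fatty acid hydroxylase, 8.89 and 9.42 (0.53). GSTT1, a glutathione transferase, had the lowest difference, from 8.33 to 8.13 (-0.21). All 7 ABC transporters analysed from the list were above 0, by 0.06 to 0.39, with a median of 0.12, and ABCB1, the drug efflux pump, read 7.95 and 8.26 (0.30). ABCC10, a family member outside the list and named after its values were seen, read 7.11 and 7.70 (0.59), with 0.15 from a second probe set. CYP2A13, under the floor in RBM35A- cells, read 5.58 in RBM35A+ cells, and its difference of 0.58 is a lower bound.

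Secreted mucins made up the second group at the top. MUC2, the main gel-forming mucin of intestinal goblet cells, read 6.54 in RBM35A- and 8.00 in RBM35A+ cells (1.46, 2.75-fold). A second MUC2 probe set stayed below 5, at 2.90 and 3.42 in total RNA and 2.89 and 2.87 in polysomal RNA. MUC6, a gel-forming mucin best known from gastric glands, read 8.74 and 9.59 (0.85, 1.81-fold). FCGBP, a goblet cell protein that binds within mucus, read 5.91 and 6.66 (0.75, 1.68-fold). In bulk RNA, more cells that express a gene and more RNA per cell cannot be told apart.

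The whole goblet list did not follow these genes. Of 22 listed genes on the array 10 were analysed, of which 4 were above 0 and 6 below, with a median of -0.11. The gel-forming mucin MUC5AC read 8.76 and 8.84 (0.08), and MUC5B was below 5 on both arrays. TFF1, a trefoil peptide secreted with mucin, was lower, from 9.74 to 9.21 (-0.53), and TFF3, the intestinal trefoil peptide, went from 12.31 to 12.10 (-0.21). For TFF3, other probe sets gave 0.10 and 0.54, so its probe sets disagreed in sign. AGR2, a disulfide isomerase needed for mucin folding, read 9.50 and 9.29 (-0.21). The transcription factors tied to goblet and intestinal fate stayed within 0.22 of 0, among them CDX2 (9.76 and 9.80) and KLF4 (5.77 and 5.94).

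MUC6, MUC2, MUC5AC and MUC5B lie in this order on chromosome 11, with MUC2 the second and MUC5AC the third protein-coding gene after MUC6. The neighbours thus differed in size, with 0.85 for MUC6, 1.46 for MUC2 and 0.08 for MUC5AC. The MUC2 promoter is shown for comparison with that of CYP3A5, as the other large difference in a gut gene (RefSeq, GRCh38.p14, chr11:1074624-1074923, plus strand, GC content 62%). Capitals mark, on either strand, the TATA box core TATAA, the CCAAT box, the CDX core TTTAT and the GC box GGGCGG.
MUC2: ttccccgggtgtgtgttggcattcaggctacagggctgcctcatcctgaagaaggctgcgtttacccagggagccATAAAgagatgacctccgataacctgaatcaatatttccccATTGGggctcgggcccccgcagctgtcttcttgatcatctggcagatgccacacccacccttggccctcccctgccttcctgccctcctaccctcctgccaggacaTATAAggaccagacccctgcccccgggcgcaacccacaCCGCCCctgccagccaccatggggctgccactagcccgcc
TATAA begins at base 223 of this window and is found in 20.4% of all promoters. GGGCGG is found in 45.0%. The pregnane X receptor motif of CYP3A5 is not in this window.

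The other genes past 2-fold have ligand, adhesion and cytoskeletal roles. MAPRE3 encodes EB3, which tracks the growing ends of microtubules. It read 6.23 and 7.63 (1.40, 2.64-fold). Its relative MAPRE1 (EB1) read 9.15 and 9.06 (-0.09), and MAPRE2 was below 5. Of 31 genes for microtubule ends, motors and tubulins, 15 were above 0 and 16 below, with a median of -0.02. The heavy chain of cytoplasmic dynein, DYNC1H1, read 7.81 and 8.37 (0.56).

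NISCH encodes nischarin, a protein that binds integrin α5 and restrains cell migration. It was close to the floor in RBM35A- cells, at 5.06, and read 6.18 in RBM35A+ cells (1.12, 2.18-fold). With a floor of 6 its difference was 0.18, and after removal of the trend with the polysomal minus total value it was 0.95, both under 2-fold. In polysomal RNA the same probe set read 9.61 and 9.71. Promoters of MAPRE3 and NISCH are shown because they differ in composition from those of the gut genes above. Their windows (RefSeq, GRCh38.p14, chr2:26970387-26970686 and chr3:52455354-52455653, both plus strand) have a GC content of 69.3% and 75.7%, against a median of 58.7% over all promoters. MAPRE3 has 2 starts in the table and the first is used. Capitals mark GGGCGG on either strand.
MAPRE3: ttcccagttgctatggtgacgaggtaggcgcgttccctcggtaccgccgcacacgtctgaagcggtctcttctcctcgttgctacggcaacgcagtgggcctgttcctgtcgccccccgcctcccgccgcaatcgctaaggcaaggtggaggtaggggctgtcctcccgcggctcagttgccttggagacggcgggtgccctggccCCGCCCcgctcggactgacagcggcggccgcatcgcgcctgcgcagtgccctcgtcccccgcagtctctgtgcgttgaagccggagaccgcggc
NISCH: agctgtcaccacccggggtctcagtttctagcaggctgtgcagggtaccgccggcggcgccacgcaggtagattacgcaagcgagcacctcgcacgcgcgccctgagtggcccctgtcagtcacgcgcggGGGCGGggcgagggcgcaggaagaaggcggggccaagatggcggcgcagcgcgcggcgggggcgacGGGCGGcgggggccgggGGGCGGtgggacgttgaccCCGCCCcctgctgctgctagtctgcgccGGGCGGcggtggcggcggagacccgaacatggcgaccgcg
GGGCGG occurs at 5 places in the NISCH window and at 1 in that of MAPRE3. Neither window holds the TATA box core, the CCAAT box or the CDX core.

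GAS6 passed 2-fold by a narrow margin and its probe sets did not agree. It encodes the ligand of the TAM receptor tyrosine kinases TYRO3, AXL and MERTK. The probe set used here was under the floor in RBM35A- cells (4.88 as deposited) and read 6.01 in RBM35A+ cells, so the difference of 1.01 is a lower bound. A second probe set went from 5.66 to 5.41 (-0.25) and the other from 5.33 to 5.40 (0.07). Of the receptors, AXL and MERTK were below 5 on both arrays, and TYRO3 read 7.53 and 7.21 (-0.32), with -0.33 and 0.12 from its other probe sets. The other ligand, PROS1, read 5.74 and 5.92 (0.18).

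**Figure D3:**
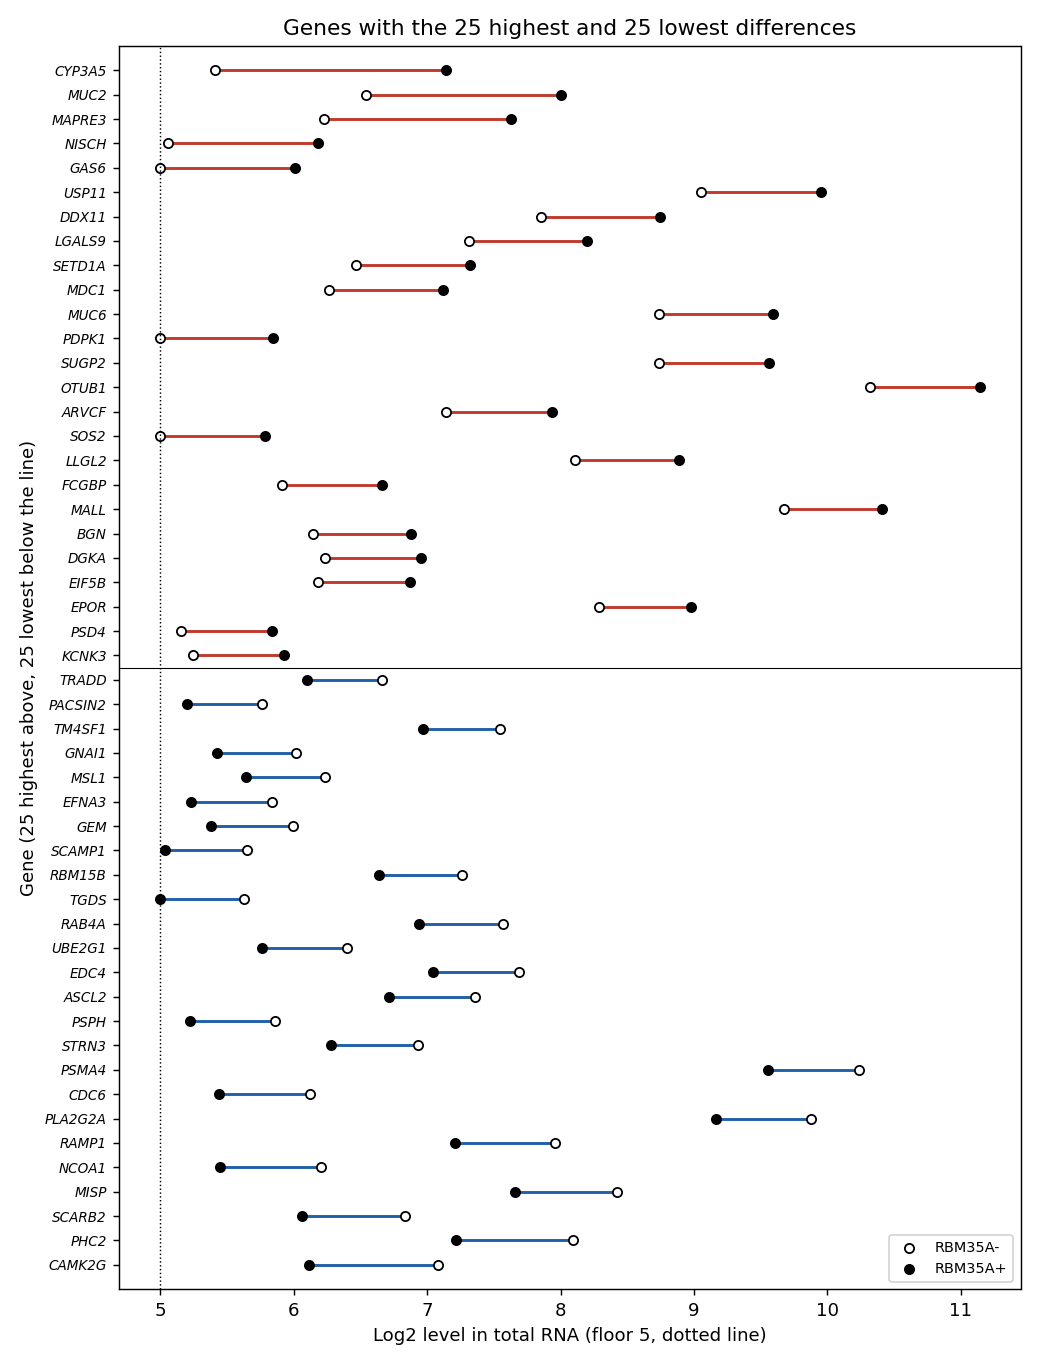
Log2 levels in total RNA (x axis, floored at 5, dotted line) of the genes with the 25 highest and the 25 lowest differences (y axis); open circles are RBM35A-, filled circles RBM35A+, 1 array each. CYP3A5, MUC2 and MAPRE3 have the longest upward lines, and CAMK2G, from 7.08 to 6.11, the longest downward line.

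Deubiquitinases, which remove ubiquitin from proteins, supplied 3 of the 51 genes at least 1.5-fold higher, out of 18 analysed, against 1.54% of all genes. The list was chosen with earlier results of these data known, so this share only describes the genes in it. USP11 read 9.05 and 9.95 (0.90). OTUB1, which acts on K48-linked chains, read 10.32 and 11.14 (0.82), and its polysomal values were 11.53 and 12.01. USP9X read 12.31 and 12.94 (0.64), while its other probe sets gave 0.21 and -0.13. The list as a whole was near balance, with 10 of 18 genes above 0 and a median of 0.04. USP13 was its lowest member, from 5.71 to 5.26 (-0.44).

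Some of the 25 highest genes act on DNA or chromatin. DDX11, a DNA helicase with near-identical copies in the genome, read 7.85 and 8.75 (0.89). Its helicase list had 12 of 26 genes above 0 and a median of -0.004. SETD1A, a histone H3 lysine 4 methyltransferase, read 6.46 and 7.32 (0.86), and MDC1, which gathers repair factors at DNA breaks, read 6.26 and 7.12 (0.85). These 3 genes are not in the chromatin list. Of its 41 genes analysed, 27 were above 0, with a median of 0.07, and 2 were at least 1.5-fold higher and 1 lower, against 1.54% and 0.663% of all genes. The higher were CHD3, a remodeller of the NuRD complex (0.60), and SETDB1, which methylates histone H3 lysine 9 (0.59). PHC2, a Polycomb protein, was the lower, from 8.09 to 7.22 (-0.87), the second lowest of all genes analysed. RBBP4, a histone-binding subunit shared by several complexes, read 9.94 and 9.45 (-0.49), with -0.12 from a second probe set near the floor.

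ARVCF, a catenin of cadherin junctions, read 7.14 and 7.94 (0.79), and LLGL2, a basolateral polarity protein, 8.11 and 8.89 (0.78). Both are outside the list of epithelial junction and keratin genes, which was balanced, with 16 of 31 above 0 and a median of 0.01. In that list 1 gene (EVPL) was at least 1.5-fold higher and 0 lower, against 1.54% and 0.663% of all genes. EVPL (envoplakin) and PLEC (plectin), which link keratin filaments to membranes, each differed by 0.63. A second PLEC probe set, near the floor, gave 0.02. The integrin subunit ITGA3 read 6.20 and 6.82 (0.63), with 0.27 from its second probe set. Among 23 integrin and focal adhesion genes 17 were above 0, with a median of 0.16, and the kinase PTK2 was the lowest at -0.30. In the epithelial list PRSS8, a membrane protease, read 7.90 and 7.35 (-0.55), CLDN3, a tight junction claudin, 9.85 and 9.40 (-0.44), and OVOL2, an epithelial transcription factor, 6.22 and 6.74 (0.52).

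Several other higher genes act in signalling. LGALS9 (galectin 9, with near-identical copies) read 7.31 and 8.20 (0.88). All 4 galectin genes analysed were above 0, and the other 3 differed by 0.03 to 0.21. PDPK1, the kinase that activates AKT, was under the floor in RBM35A- cells and read 5.84 in RBM35A+ cells, a difference of at least 0.84. SOS2, an exchange factor for RAS, was likewise under the floor and read 5.79 (at least 0.79). DGKA, a diacylglycerol kinase, read 6.23 and 6.96 (0.72), and EPOR, the erythropoietin receptor, 8.29 and 8.98 (0.69). PTK6, a tyrosine kinase of epithelia, read 6.45 and 7.04 (0.59) in total RNA and 8.40 and 8.18 in polysomal RNA.

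Transport, matrix and RNA-binding genes completed the upper end. SUGP2, a protein related to splicing factors, read 8.74 and 9.56 (0.82). MALL, a proteolipid of membrane rafts, read 9.67 and 10.41 (0.74), BGN, the matrix proteoglycan biglycan, 6.14 and 6.88 (0.73), and KCNK3, a potassium channel, 5.24 and 5.93 (0.68). PSD4, an exchange factor for ARF6, was near the floor in RBM35A- cells, at 5.15, and read 5.84 in RBM35A+ cells (0.69). ATP10B, a lipid flippase, read 6.05 and 6.67 (0.63) in total RNA and 5.87 and 6.42 in polysomal RNA, so it was higher in both. SPTAN1, the spectrin of the cell cortex, read 8.85 and 9.44 (0.59) in total RNA and 9.18 and 8.71 in polysomal RNA, the opposite order. Matrix and basement membrane genes were above 0 for 7 of 10, with a median of 0.15, and HSPG2 (perlecan) was the highest of the list, which does not hold BGN, at 5.27 and 5.73 (0.47).

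PKM, pyruvate kinase of glycolysis, was the only gene at least 1.5-fold higher in both RNA fractions. It read 14.73 and 15.41 in total RNA (0.68) and 13.86 and 14.70 in polysomal RNA (0.84). Glycolysis and hypoxia genes as a list were mostly below 0 (22 of 34, median -0.05). FABP1, the fatty acid carrier of enterocytes, read 5.48 and 6.12 (0.64). Enterocyte genes were above 0 for 11 of 15, with a median of 0.12, though AQP3, a water and glycerol channel, read 7.12 and 6.61 (-0.51).

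No gene was 2-fold lower in RBM35A+ cells. CAMK2G, a calcium/calmodulin-dependent kinase, came nearest, from 7.08 to 6.11 (-0.97, 1.96-fold). Its second measured probe set went from 6.23 to 6.58 (0.35), so its direction depended on the probe set. SCARB2, a lysosomal membrane protein, read 6.84 and 6.06 (-0.77), and MISP, which orients the mitotic spindle, 8.42 and 7.66 (-0.76). NCOA1, a coactivator of nuclear receptors, read 6.21 and 5.45 (-0.76), while its relative NCOA2 read 5.79 and 6.47 (0.68), the opposite direction.

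Some lower genes had a second probe set of the same sign. PLA2G2A, a secreted phospholipase of the intestine, went from 9.88 to 9.16 (-0.71), and a second probe set gave -0.29. PSMA4, a subunit of the proteasome core, went from 10.24 to 9.56 (-0.68), and a second probe set gave -0.30. SSR1, a subunit of the translocon-associated complex of the endoplasmic reticulum, was the only gene with several measured probe sets that all differed the same way by at least 0.4. Its probe sets went from 9.20 to 8.75 (-0.45) and from 6.93 to 6.38 (-0.55), neither past 1.5-fold.

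Others among the 22 lower genes have roles in receptors, the cell cycle and the crypt. RAMP1, which modifies the calcitonin receptor-like receptor, read 7.96 and 7.21 (-0.75). CDC6, which licenses replication origins, read 6.12 and 5.44 (-0.69), and among 36 replication genes 20 were below 0, with a median of -0.03. ASCL2, a transcription factor of crypt stem cells and a Wnt target, read 7.36 and 6.72 (-0.64). Its list of Wnt and crypt genes had 8 of 13 below 0 and a median of -0.08, with EPHB3, a crypt receptor, at 11.44 and 10.98 (-0.47). EPHB3 was lower in polysomal RNA too, at 11.52 and 10.59 (-0.93). PSPH, which makes serine, read 5.86 and 5.22 (-0.64), and EDC4, a scaffold of mRNA decapping, 7.69 and 7.04 (-0.64). RAB4A, a GTPase of endosome recycling, read 7.57 and 6.94 (-0.63), with -0.04 and -0.25 from its other probe sets.

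Across the lists, shifts were small. Of 48 lists with at least 3 analysed genes, 21 had a median above 0 and 27 below, from -0.11 for the proteasome to 0.18 for galectins, and 7 were at 0.1 or above and 3 at -0.1 or below. The lists for protein synthesis and turnover leaned below 0, against 49.3% of all genes. Cytosolic ribosomal proteins were below 0 for 35 of 46 (median -0.08), with RPS25 at 11.54 and 11.24 (-0.31) and RPL41 at 14.50 and 14.68 (0.18). Translation factors were below 0 for 27 of 40 (median -0.10). Among these EIF4B, a helper of the initiation helicase, read 10.70 and 10.22 (-0.47), whereas EIF5B, which joins the ribosomal subunits, read 6.18 and 6.87 (0.69).

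Of 3 mitochondrial lists, 2 leaned the same way, and mitochondrial stress response genes were balanced (8 above 0 and 9 below, median -0.02). Respiratory chain genes were below 0 for 37 of 53 (median -0.06), although COX8A, a subunit of complex IV, read 13.32 and 13.80 (0.48). In polysomal RNA the median of the same 53 genes was 0.09. Mitochondrial ribosomal proteins were below 0 for 11 of 14 (median -0.09), with MRPS11 at 7.84 and 7.35 (-0.49). The proteasome list was below 0 for 21 of 33, with PSMB6, a catalytic subunit, at 11.25 and 10.85 (-0.40), and its polysomal median was 0.05. Immediate early genes, which respond within minutes to growth signals, were below 0 for 14 of 20 (median -0.11), and PHLDA1 read 9.56 and 9.13 (-0.42). In polysomal RNA 16 of these 20 were below 0, with a median of -0.25.

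Splicing factors and hnRNPs, the largest list and the family to which RBM35A is closest in function, were balanced. Of 70 genes, 32 were above 0 and 38 below, with a median of -0.01. None passed 1.5-fold, where the shares of all genes were 1.54% higher and 0.663% lower, and SUGP2 is not in this list. SFPQ, a paraspeckle and splicing protein, was the highest, at 6.79 and 7.29 (0.50). Its other probe sets, brighter in total RNA, gave 0.12 and 0.24. SRSF7, an SR protein that promotes exon inclusion, was the lowest, at 7.15 and 6.64 (-0.51). CLK1, a kinase of SR proteins, read 5.28 and 5.72 (0.44) with -0.12 from a second probe set, and SRSF10 read 8.08 and 7.72 (-0.35).

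Stress and quality-control lists showed members in both directions. Genes of the ATF4 and amino acid response were below 0 for 22 of 33, with a median of -0.07. CEBPB, a stress-responsive transcription factor, read 9.36 and 8.88 (-0.48), and DDIT4, an inhibitor of mTORC1, read 8.39 and 8.02 (-0.37). DDIT4 was lower in polysomal RNA as well, at 10.03 and 9.30. Chaperones of the endoplasmic reticulum had 15 of 27 below 0 with a median of -0.03, although HYOU1 and CALR were each higher by 0.40. Lysosome and autophagy genes were balanced (24 of 46 below 0, median -0.02), with LAMP1, a lysosomal membrane protein, at 12.05 and 12.58 (0.53) and MAP1LC3B, which coats autophagosomes, at 9.42 and 8.90 (-0.52). Metallothioneins and their regulators, which handle zinc, had a median of 0.04 over 10 genes in total RNA and 0.46 in polysomal RNA. Probe sets of this family can read near-identical members and are uncertain as to gene.

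Lists of proliferation and of cell identity genes also had medians near 0. Mitosis genes were below 0 for 21 of 35 (median -0.05), and TOP2A, the topoisomerase of dividing cells, read 6.64 and 7.05 (0.41), with -0.08 and 0.04 from its other probe sets. CDK2, a kinase of S phase entry, read 9.07 and 9.56 (0.49), with 0.16 from a second probe set. TK1, thymidine kinase, read 10.13 and 9.66 (-0.47), while its second probe set read 10.06 and 10.07 (0.01). Of 28 mesenchymal genes on the array 7 were analysed, 2 of them above 0 and 5 below, and TPM1 and TPM2, tropomyosins of actin filaments, differed by -0.29 and -0.32. Other probe sets gave -0.05 and -0.13 for TPM1 and 0.22 for TPM2, so the sign of TPM2 depended on the probe set. Nuclear receptors and cofactors were above 0 for 17 of 27 (median 0.07). Of these 27, 1 (NCOA2) was at least 1.5-fold higher and 1 (NCOA1) lower, against 1.54% and 0.663% of all genes. The mineralocorticoid receptor NR3C2 read 5.61 and 6.18 (0.57). The vitamin D receptor VDR read 7.27 and 6.94 (-0.33), with -0.09 from a second probe set. In the EGFR pathway, ERBB3 read 9.03 and 8.62 (-0.41), with -0.39 to 0.05 from 4 other probe sets, and EGFR 5.26 and 5.53 (0.26).

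**Figure D4:**
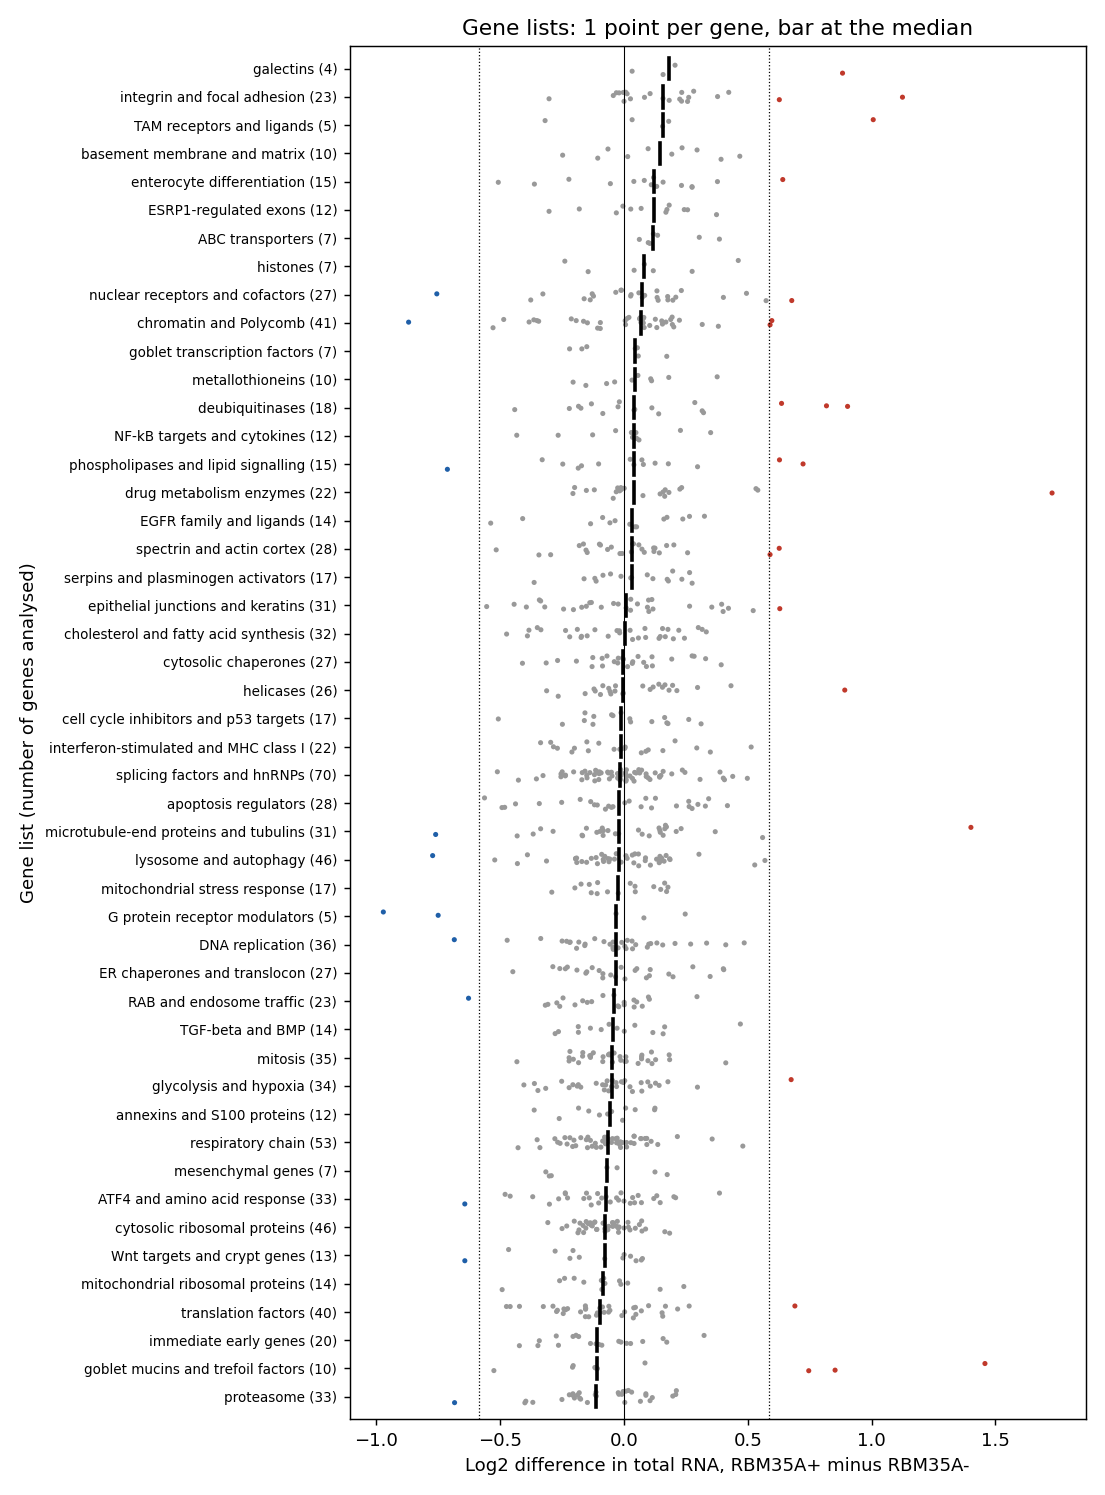
Log2 difference in total RNA, RBM35A+ minus RBM35A- (x axis), of the genes of 48 lists (y axis, number of genes analysed in brackets), 1 point per gene, with a black bar at each list's median; dotted lines mark 1.5-fold and points past them are coloured. List medians run from -0.11 to 0.18 and all lie well inside the dotted lines.

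Genes with exons known to be regulated by ESRP1 were examined as a group, since these arrays read mostly the 3′ part of transcripts and do not measure splicing directly. Of 26 on the array 12 were analysed, of which 8 were above 0 with a median of 0.12. None of these 12 passed 1.5-fold, where the shares of all genes were 1.54% higher and 0.663% lower. ADAM15, a membrane metalloprotease, read 7.57 and 7.95 (0.37), and NF2 (merlin), a cortical tumour suppressor, 7.17 and 7.43 (0.26). For NF2 a second probe set went the other way, from 7.61 to 7.30 (-0.31). FGFR2 and CTNND1 were below 5 on both arrays. CD44, a hyaluronan receptor with many splice forms, had 5 measured probe sets that disagreed. Its gene-level probe set went from 8.28 to 8.10 (-0.18) and 3 others differed by -0.28 to -0.48, while the remaining probe set went from 7.59 to 8.19 (0.60). That probe set was also higher in polysomal RNA, at 5.74 and 6.49 (0.75). There the gene-level probe set differed by 0.10 and others by 0.29 and 0.04, while the last was under the floor.

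CDH1, the cadherin of epithelial junctions, showed the widest such disagreement among the genes with a second probe set past 1.5-fold. The gene-level probe set went from 10.07 to 10.46 (0.39), and the other from 7.54 to 6.60 (-0.94). In all, 528 further probe sets were measured for genes with more than 1, of which 7 were at least 1.5-fold higher and 16 lower. The shares of all genes were 1.54% higher and 0.663% lower. UBE3B, a ubiquitin ligase, had the highest of the further probe sets, at 6.02 and 7.07 (1.04), against 0.00 for its gene-level probe set. Whether such probe sets read different splice forms was not tested.

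For the genes past 1.5-fold, second probe sets rarely showed differences of the same size. Of the 51 higher genes 32 had a single probe set on the array, and 6 had others that were measured. Those 8 other probe sets had a median difference of 0.08 and a range from -0.25 to 0.27, with 6 of the same sign and 0 past 1.5-fold. Of the 22 lower genes 4 had other measured probe sets, 5 in all, with a median of -0.25, a range from -0.30 to 0.35 and 4 of the same sign.

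The total RNA differences were set beside those of the polysomal arrays, which were normalized separately. Over the same 3320 genes, 0.602% were at least 1.5-fold higher in polysomal RNA of RBM35A+ cells and 1.33% lower, with 51.9% above 0 and 41.4% below. Of the 51 genes higher in total RNA, 38 were above 0 in polysomal RNA and 12 below, with a median of 0.10 and a range from -0.47 to 0.84. Of the 22 lower genes, 9 were below 0, 4 above and 9 under the floor on both polysomal arrays. Of these 22, 0 passed 1.5-fold in polysomal RNA, against 1 of the 51. CYP3A5 (0.56), ATP10B (0.54), NCOA2 (0.52) and MALL (0.51) came nearest to it among higher genes, and RAB4A (-0.54) among lower ones. Other probe sets of RAB4A gave 0.01 and -0.23 in polysomal RNA.

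The genes higher in total RNA of RBM35A+ cells mostly had polysomal values above their total RNA values in both states. Their median polysomal minus total value was 1.30 in RBM35A- and 0.69 in RBM35A+ cells, against 0.04 in both for all genes. In RBM35A+ cells 38 of the 51 (74.5%) had the higher value in polysomal RNA, compared with 52.1% of all genes. For the 22 lower genes these medians were -0.83 and -0.25. Among the 51 higher genes MUC2 is an example, at 6.54 and 8.00 in total RNA and 10.49 and 10.43 in polysomal RNA. These values share the total RNA arrays that chose the genes, so they describe the genes and are not independent of the choice. The part in them of the weaker 5′ control signal on the polysomal arrays was not tested.

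**Figure D5:**
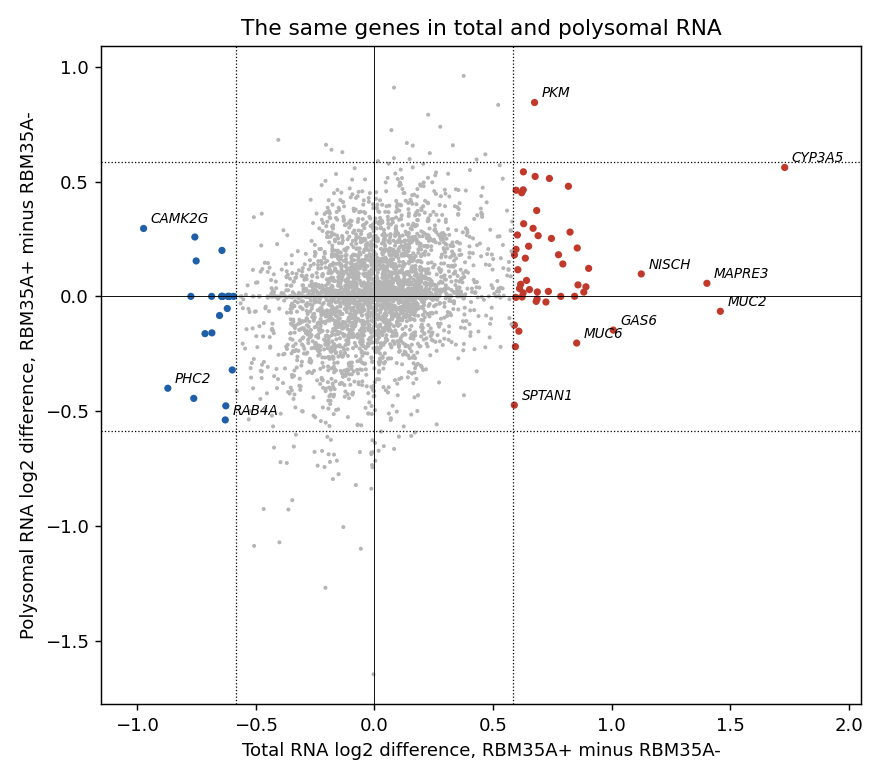
Log2 difference RBM35A+ minus RBM35A- in polysomal RNA (y axis) against that in total RNA (x axis), 1 point per gene for 3320 genes; dotted lines mark 1.5-fold, red and blue mark genes past it in total RNA. PKM, at 0.68 and 0.84, is the only coloured gene past 1.5-fold on both axes, and MUC2 and MAPRE3 lie near 0 on the polysomal axis.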

How the data were processed

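The deposited values are log2 expression values that the authors made with GCRMA, per the submitters' processing notes; no version is given in the sources used here. This method corrects background by probe base composition and summarises each probe set. Sorted values of both total RNA arrays differed by at most 4.29e-06, so they had been brought to 1 distribution, and a shift of most genes would have been removed. Of 12626 probe sets, 67 were controls, and 10943 had 1 symbol (546 had several and 1070 none). Of the 10943, 10934 were matched to a current symbol of RefSeq GRCh38.p14. A gene with several probe sets was read from the 1 whose mean over all 4 arrays was highest. Values were floored at 5 and differences taken. A difference with 1 floored value (137 genes) is a lower bound in size. No p-values were computed, since each group had 1 array.

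The rule for named genes took those past 2-fold, the 25 highest and 25 lowest, genes with all of several probe sets past 0.4 the same way, genes under 5 on 1 array and at 5.5 or more on the other, and in each list those past 1.5-fold and the 4 highest and lowest. Relatives of genes past 2-fold and control probe sets were also named, and genes named for a disagreeing second probe set (CDH1, UBE3B) were chosen after their values were seen. Members and lists were chosen with earlier results of these data known. The text describes some of the 48 lists and some of the genes that met the rule, and not all of them. Besides the 48 lists, nuclear-retained RNAs (TUG1, 7.57 and 7.66) had too few members for a median. Alternatives were floors of 4 and 6, no floor, other choices of probe set, and removal of a trend. The trend with level was removed by lowess (fraction 0.3), and the trend with the polysomal minus total value by a straight-line fit. The scripts, tested on simulated data, used Python 3.11.15, numpy 2.4.6, pandas 2.3.3, statsmodels 0.14.6 and matplotlib 3.10.9.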

Additional observations from a re-analysis of the deposited data

Results flagged for a closer look

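Among genes at least 1.5-fold different in total RNA, 6 had a polysomal difference of opposite sign and a size of 0.20 or more. The difference between fractions was not tested, since each value rests on 1 array a side. CAMK2G differed by -0.97 in total and 0.30 in polysomal RNA, NCOA1 by -0.76 and 0.26, and EDC4 by -0.64 and 0.20. In the other direction, SPTAN1, a spectrin of the cell cortex, differed by 0.59 in total and -0.47 in polysomal RNA. PTK6, an epithelial tyrosine kinase, differed by 0.59 and -0.22, and MUC6 by 0.85 and -0.20. Each value is from 1 probe set. A second NCOA1 probe set, below 5 in total RNA, differed by -0.01 in polysomal RNA. Other CAMK2G probe sets differed by -0.23 and 0.13 in polysomal RNA, the latter with 0.35 in total RNA.

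Signals also appeared in probe sets outside the gene comparison. The control probe set for the 5′ part of 18S rRNA read 11.57 in total RNA of RBM35A+ cells and 2.22 on the other 3 arrays. Of 493 measured probe sets with no gene symbol or several, 11 (2.23%) were at least 1.5-fold higher and 2 (0.406%) lower. The 3 that passed 2-fold had no symbol in the annotation used here. The first of these differed by 1.68 (8.11 and 9.80), and in polysomal RNA by -1.46 (9.88 and 8.42). The others differed by 1.15 and 1.10, with polysomal differences of 0.00 and 0.02.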

How the results depend on the processing

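Of the 5 genes at least 2-fold higher, 3 stayed past the threshold with a floor of 6, on averaging a gene's probe sets, or after removal of the trend with the polysomal minus total value. NISCH was lost under the higher floor (0.18) and after the trend was removed (0.95). CYP3A5 and MAPRE3 passed it under all 8 alternatives, and MUC2 under all but the mean of probe sets. Against 0 genes 2-fold lower, 2 were found with a floor of 4 and 2 with no floor (DDAH1 and NDRG1 in both), and 1 after removal of the fraction trend (CAMK2G, -1.07). The 51 genes 1.5-fold higher became 33 and the 22 lower became 11 with the mean of probe sets, and the lower became 12 with a floor of 6. GAS6 reversed to -0.25 with the probe set highest on the total arrays and to -0.25 with plain probe sets (names ending in _at alone), and CAMK2G reversed to 0.35 with plain probe sets. Of 384 list medians under alternatives, 3 moved: mesenchymal genes to -0.29 (from -0.07) with the probe set highest on the total arrays, and TAM receptors and ligands to -0.11 (from 0.16) and histones to -0.14 (from 0.08) with plain probe sets. The median kept its sign under every setting for 26 of 48 lists and changed it or reached 0 for 22, so the direction of a small list shift rests on the processing. No cause of these changes was tested beyond what each alternative does. No paired analysis was possible because each group had 1 array and the labels carry no replicate numbers. A floor of 5 leaves differences of dim genes unknown or bounded.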
